A study of Mus musculus with 6 samples.

Results

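Cd74 and the MHC class II genes H2-Aa, H2-Ab1 and H2-Eb1 were followed across 6 adult mouse tissues by parallel analysis of RNA ends (PARE), which reads a short tag from the 5′ end of polyadenylated RNAs that carry a 5′ monophosphate. The 4 genes were taken as 4 strand-specific windows of the mm9 genome out of all positions at which tags were listed (79112 windows of 2 kb and strand held at least 1 tag). They were chosen by their levels per library, high in spleen, so the levels and end positions by tissue are given as a description, with no test of a difference between tissues. Whole spleen, lung, liver, kidney, ovary and brain of animals with a BALB-c background gave 1 library each. No treatment is named in the labels, and neither sex nor the number of animals per library is stated there. All values are therefore those of single libraries, and their 95% intervals hold counting error alone, without any spread between animals. They treat each tag as a separate molecule, which tags multiplied by PCR are not, so they can be too narrow even for counting error. Whether intervals include a value describes these libraries and not the tissues.

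MHC class II molecules are pairs of an alpha and a beta chain that display peptides from taken-up protein to CD4+ T cells. They are made mainly by B cells, dendritic cells and macrophages, which are plentiful in spleen and also present in lung. H2-Aa encodes the alpha chain and H2-Ab1 the beta chain of the I-A molecule, and H2-Eb1 encodes the beta chain of the I-E molecule. Cd74 encodes the invariant chain, which binds new class II molecules, fills their groove and escorts them to the endosomes where peptides are loaded. A messenger RNA ends in a poly(A) tail that is added a short way after a signal, most often the hexamer AATAAA. A 5′-monophosphate end can arise from cleavage inside the RNA, from removal of the cap or during decay.

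Uniquely listed tags ranged from 29213 in ovary to 493121 in lung, with 42939 in spleen. Levels are tags per 1000000 unique tags (CPM), and a count of 0 allows up to 69.9 CPM in spleen, 6.08 in lung and at most 102.7 elsewhere, in ovary. Genes that mark a tissue could be checked only where tags matched the start of the gene in a RefSeq promoter table. Sftpa1 and Ager marked lung, Kap, Umod, Gpx3 and Miox marked kidney, and Inha marked ovary, each highest in the library of its own label. The lung library also held the kidney genes, at 8.64% of the kidney CPM for Kap, 7.13% for Umod, 15.0% for Gpx3 and 7.29% for Miox. The liver library held the lung genes Sftpa1 at 3.63% and Ager at 5.88% of the lung CPM. No chosen marker of brain or liver could be placed. No markers of spleen tissue were chosen, so the spleen label was not checked in this way. Of the 8 B cell markers, only Pax5 was placed, with 2 spleen tags and 10 tags in all. It had 46.6 CPM in spleen, 59.9 in brain from 2 tags and 10.1 in lung from 5.

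The tags most often read from the class II genes in spleen and in lung began at different places, and their sequences show where. They are printed 5′ to 3′ as read, with the hexamer AATAAA in capitals where the tag holds it whole.
H2-Aa, spleen, chr17:34419707-34419726, minus strand: aaaccAATAAAatctcttct
H2-Aa, lung, chr17:34419738-34419758, minus strand: actgcagactctctcagagac
H2-Ab1, spleen, chr17:34406334-34406354, plus strand: AATAAAcgagactcagactct
H2-Ab1, lung, chr17:34406149-34406168, plus strand: tcagagtctagcatggtact
H2-Eb1, spleen, chr17:34453125-34453144, plus strand: ataaacaaataatgaaagtc
H2-Eb1, lung, chr17:34453087-34453106, plus strand: ccagtctgctgtcatatgct

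The spleen tag of H2-Aa began 5 nt before the hexamer, that of H2-Ab1 at its first base and that of H2-Eb1 at its second base, so that the first A is missing from the tag. The lung tags began 37 nt upstream of it in H2-Aa, 185 nt in H2-Ab1 and 37 nt in H2-Eb1. In H2-Aa the lung end shown was 1 of 3 that tied with 14 tags each. This end also held 6 of the 102 spleen tags, against 8 at the spleen end shown. The lung end shown for H2-Eb1 held 5 of its 91 lung tags. In each of the 4 genes the tags spelled out a single AATAAA. Its first base was position 34419721 in H2-Aa, 34406334 in H2-Ab1 and 34453124 in H2-Eb1 on chromosome 17 of mm9. For Cd74 no sequence is shown.

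The windows, in mm9 coordinates, were chr18:60963001-60973000 on the plus strand for Cd74 and chr17:34419001-34425500 on the minus strand for H2-Aa. They were chr17:34400001-34407000 for H2-Ab1 and chr17:34442001-34454000 for H2-Eb1, both on the plus strand. They held 2602 unique tags for Cd74, 535 for H2-Aa, 771 for H2-Ab1 and 237 for H2-Eb1. No tag lay on the opposite strand of any of them. Within 2 kb outside the windows, on the same strand, there was 1 tag at Cd74 and 1 at H2-Ab1, and none at H2-Aa or H2-Eb1. Exons, introns and untranslated regions of mm9 were not assigned here. The first base of AATAAA in Cd74 was position 60972285.

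H2-Aa, the alpha chain of I-A, reached 2375 CPM in spleen from a count of 102 tags (interval 1937 to 2884). It had 801 CPM in lung, followed by ovary with 308, kidney with 136 and liver with 88.7, from 395, 9, 22 and 7 tags, while brain had none. Spleen lay 2.97 times above lung (interval 2.36 to 3.70), and lung lay 2.60 times above ovary (1.36 to 5.73). From ovary downwards, the counting intervals of the ratio between neighbours included 1.

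H2-Ab1, the partner beta chain, had 2259 CPM in spleen from 97 tags (interval 1832 to 2756). The other levels were 1225 CPM in lung from 604 tags, 271 in kidney from 44, 240 in ovary from 7, 215 in liver from 17 and 59.9 in brain from 2. Spleen lay 1.84 times above lung (interval 1.47 to 2.29). With depths scaled by the trimmed mean of M values (TMM) in place of library totals it turned to 0.881, below 1. Lung exceeded kidney 4.52-fold (3.32 to 6.28), and the counting intervals of the ratios between lower neighbours included 1.

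H2-Eb1, the beta chain of I-E, had 2981 CPM in spleen from 128 tags (interval 2487 to 3544), against 185 CPM in lung from 91 tags, a ratio of 16.2 (12.3 to 21.4). Ovary had 102.7 CPM, liver 63.3 and kidney 61.6, from 3, 5 and 10 tags, and brain had none. Below spleen the counting intervals of all ratios between neighbours included 1, that of lung over ovary among them (1.80, interval 0.596 to 8.88).

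Cd74, the invariant chain, had 1168 of the 42939 spleen tags, a level of 27201 CPM (interval 25664 to 28807). Lung followed with 2667 CPM from 1315 tags, liver with 684 from 54 and kidney with 308 from 50. Ovary had 274 CPM from 8 tags and brain 210 from 7. Spleen exceeded lung 10.2-fold (9.42 to 11.0), lung exceeded liver 3.90-fold (2.97 to 5.22) and liver exceeded kidney 2.22-fold (1.48 to 3.33), while the counting intervals of kidney over ovary and of ovary over brain included 1.

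Scaled by library totals, the 4 genes thus shared spleen as the highest library and lung as the second, an order that TMM turned for H2-Ab1. Of the 4, 3 exceeded a ratio of 2 in spleen over lung, a size that 18.8% of 8599 windows of 2 kb reached. These genes were chosen for this contrast, and the count is only a description. Scaled by TMM, the ratio was 4.87 for Cd74, 1.42 for H2-Aa and 7.71 for H2-Eb1. Counting each distinct end once, it was 3.45 for H2-Aa, 1.47 for H2-Ab1, 2.50 for H2-Eb1 and 2.22 for Cd74, so the order of the genes by this ratio changed, and leaving out the 10 strongest ends of each library it was 2.90 for Cd74. In whole tissue, fewer cells of a type and less RNA per cell cannot be told apart.

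**Figure D1:**
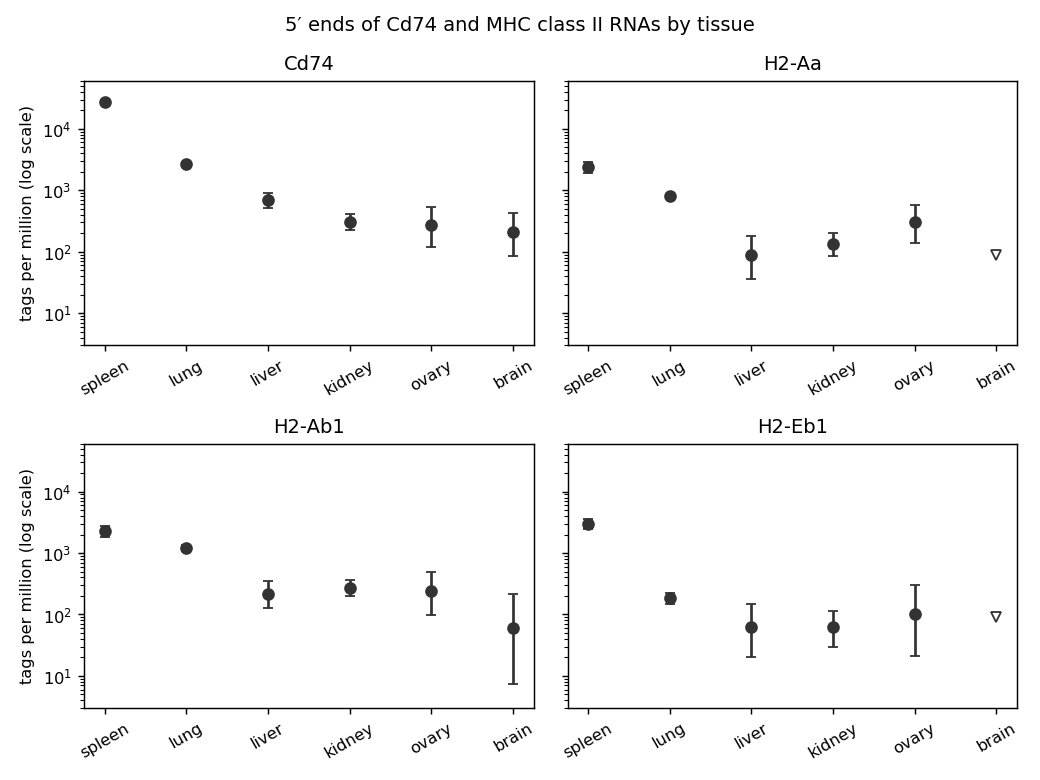
Level in CPM (log axis) for each of the 4 genes in the 6 libraries, 1 library per tissue. Points are levels, bars are exact Poisson 95% intervals, and open triangles mark the level that a count of 0 allows; spleen is highest in each panel and lung second, an order that TMM scaling turned for H2-Ab1 (ratio 0.881).

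The share of Cd74 among the tags of the 4 genes needs no scaling between libraries. It was 78.1% in spleen (exact interval 75.9 to 80.2) and 54.7% in lung (52.7 to 56.7). Liver had 65.1% (53.8 to 75.2), kidney 39.7% (31.1 to 48.8) and ovary 29.6% (13.8 to 50.2), while brain had 7 of only 9 tags. H2-Ab1 made up 6.49% of the spleen tags of the 4 genes (5.29 to 7.86) and 25.1% of those in lung (23.4 to 26.9). Counted by distinct ends, Cd74 made up 32.9% in spleen and 33.2% in lung, so the libraries differed in the tags per end rather than in this share of ends.

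The libraries also differed in where along these RNAs the ends lay. In spleen the ends of Cd74, H2-Ab1 and H2-Eb1 crowded at or shortly before the AATAAA hexamer. Those of H2-Aa lay more loosely on both sides of it. In lung the ends of all 4 genes were spread farther upstream and, more thinly, over the rest of the gene. Cd74 allows the plainest comparison, because spleen and lung gave similar numbers of its tags. The 1168 spleen tags fell on 49 distinct ends and the 1315 lung tags on 234.

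For Cd74 the median end in spleen was at the first base of the hexamer, 0 nt away, against 40 nt upstream in lung. A stretch of 6 nt, from 4 nt before that base to 1 nt after it, took 1021 of the 1168 spleen tags (87.4%). In lung the densest 6 nt, which overlap the same place, took 217 of 1315 (16.5%). The base at position 60972285 alone held 536 spleen tags, or 45.9% (interval 43.0 to 48.8). The same base held 77 lung tags (5.86%) and 10 of the 54 liver tags (18.5%, interval 9.26 to 31.4), and no tag in kidney, ovary or brain.

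For H2-Eb1 the spleen median was likewise 0 nt, against 94 nt upstream in lung. The second and the first base of its hexamer, positions 34453125 and 34453124, held 30 and 28 of the 128 spleen tags, against 1 and 0 of the 91 lung tags. For H2-Ab1 the median was 7 nt in spleen and 131 nt in lung, and the first base of the hexamer was the strongest spleen end with 15 of 97 tags. H2-Aa was the least concentrated in spleen, with a median of 10 nt against 56 nt in lung and no more than 8 of its 102 spleen tags at a single base. Its densest 6 nt in spleen took 25 tags (24.5%). Some of its spleen tags began past the whole hexamer, 5 of them 12 nt after its first base.

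**Figure D2:**
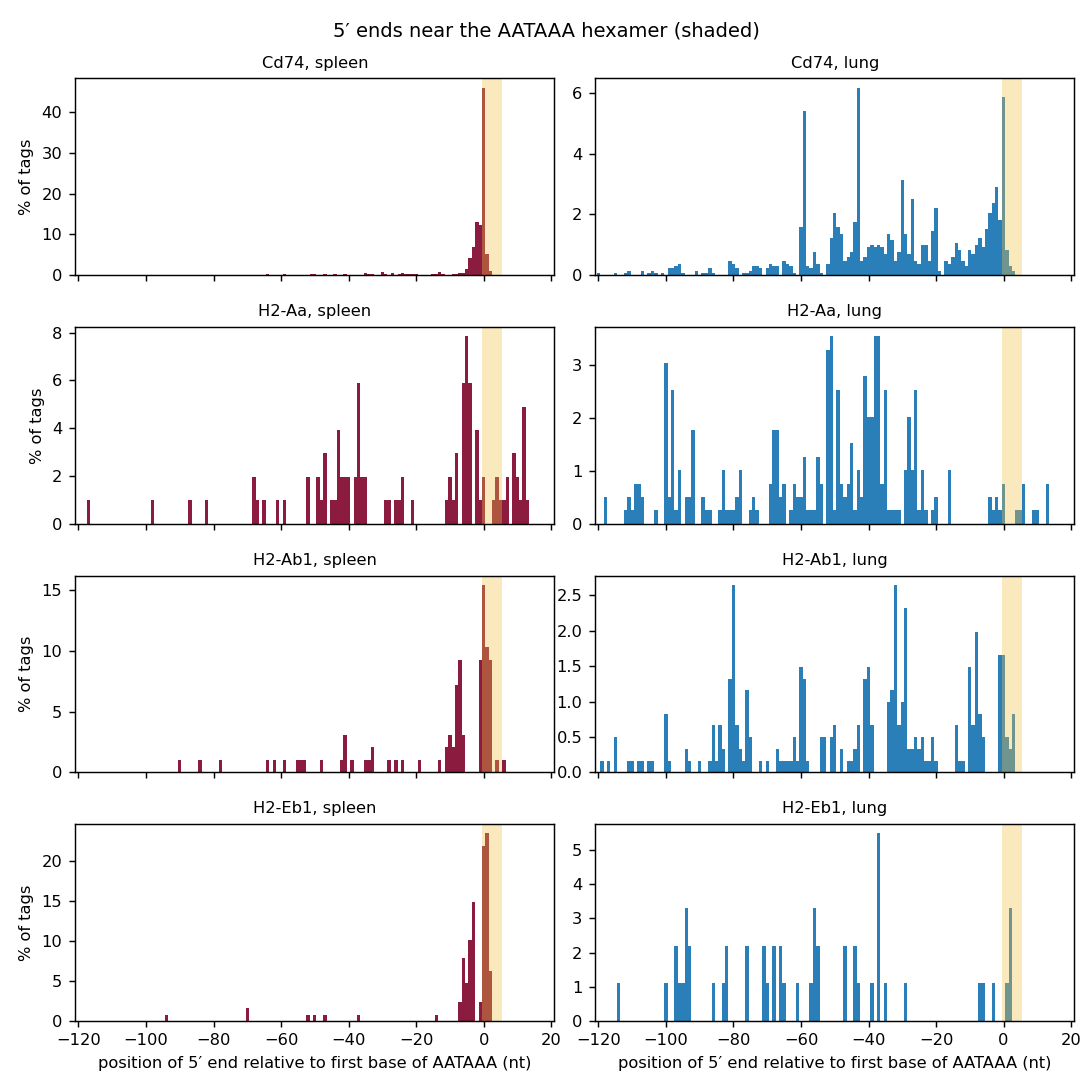
Share of each gene's tags (%) that begin at each base from 120 nt before to 20 nt after the first base of AATAAA (shaded), spleen on the left and lung on the right; the vertical scales differ between panels. Spleen ends of Cd74 and H2-Eb1 stand almost wholly at or just before the hexamer, with 45.9% of Cd74 tags at 1 base, while lung ends are spread.

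Ends lying from 50 nt before the hexamer onwards, a limit chosen after the positions had been seen, made up 98.9% of Cd74 tags in spleen (interval 98.1 to 99.4) and 66.2% in lung (63.6 to 68.8). For H2-Aa the shares were 88.2% in spleen (80.4 to 93.8) and 41.0% in lung (36.1 to 46.0). For H2-Ab1 they were 88.7% in spleen (80.6 to 94.2) and 29.0% in lung (25.4 to 32.8), and for H2-Eb1 96.9% in spleen (92.2 to 99.1) and 23.1% in lung (14.9 to 33.1). In each gene the share was higher in the spleen library than in the lung library. Kidney also lay below spleen, with 36.0% of 50 Cd74 tags (22.9 to 50.8) and 20.5% of 44 H2-Ab1 tags (9.80 to 35.3) in that stretch. Liver lay at 64.8% of 54 Cd74 tags (50.6 to 77.3) and 64.7% of 17 H2-Ab1 tags (38.3 to 85.8). Ovary and brain had too few tags of any of these genes to place.

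**Figure D3:**
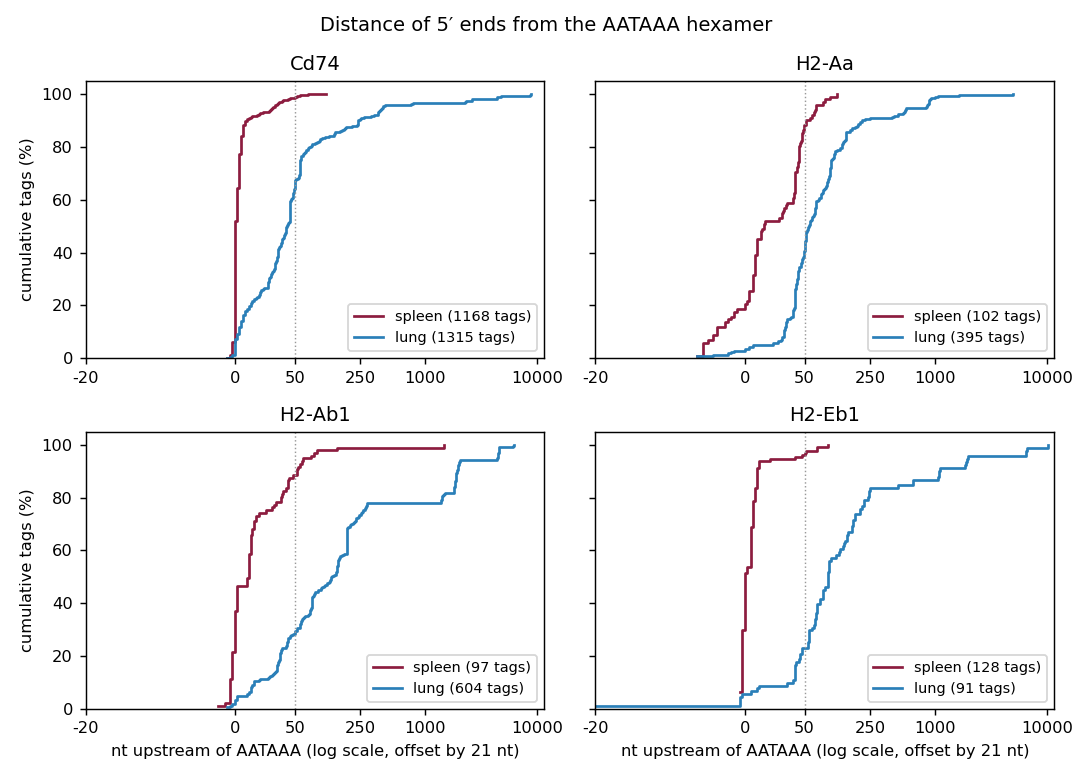
Cumulative share of tags (%) against the distance of their 5′ end upstream of AATAAA (log axis offset by 21 nt; the few ends farther past it are drawn at the left edge), for spleen and lung. The dotted line marks 50 nt; at that point the spleen curves stand between 88.2% and 98.9% and the lung curves between 23.1% and 66.2%.

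The ratio of spleen to lung depended on this stretch. From 50 nt before the hexamer onwards, spleen exceeded lung 15.2-fold for Cd74 (interval 13.9 to 16.6), 6.38-fold for H2-Aa (4.87 to 8.31), 5.64-fold for H2-Ab1 (4.31 to 7.35) and 67.8-fold for H2-Eb1 (42.5 to 113). Farther upstream the ratio was below 1 in each gene. Cd74 had 13 spleen tags there, 303 CPM, against 444 lung tags, 900 CPM (ratio 0.336, interval 0.178 to 0.581). H2-Ab1 had 11 and 429 tags (0.294, interval 0.146 to 0.532). For H2-Aa, with 12 spleen and 233 lung tags, the ratio was 0.591 (0.301 to 1.05), and for H2-Eb1, with 4 and 70 tags, 0.656 (0.174 to 1.76), and both intervals include 1. The median ratio of spleen over lung across the 8599 windows tested was 0.574. Under TMM the 4 upstream ratios lay between 0.141 and 0.313, and by distinct ends between 0.469 and 0.965.

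**Figure D4:**
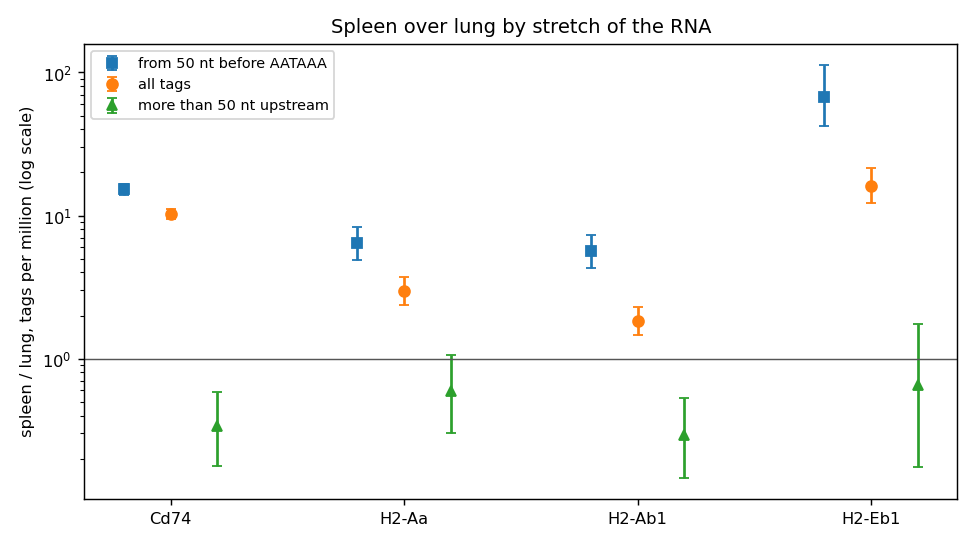
Ratio of spleen over lung in CPM (log axis, bars are exact conditional 95% intervals) for tags from 50 nt before AATAAA onwards, for all tags, and for tags more than 50 nt upstream. Near the hexamer all 4 ratios lie above 1 (5.64 to 67.8), and upstream all 4 lie below 1 (0.294 to 0.656), with intervals that include 1 for H2-Aa and H2-Eb1.

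Ends near AATAAA were frequent across the whole spleen library too. Of all tags outside these genes, 36.6% in spleen held the hexamer whole (interval 36.2 to 37.1), against 8.77% in lung and between 2.28% (kidney) and 9.67% (liver) in the other libraries. Within the spleen library, tags holding it made up 86.8% for Cd74 (84.7 to 88.7), 64.8% for H2-Eb1 (55.9 to 73.1), 52.6% for H2-Ab1 (42.2 to 62.8) and 33.3% for H2-Aa (24.3 to 43.4). The share of H2-Aa was thus close to that of the rest of the spleen library, and those of the other genes were higher. In lung the shares were 24.0% for Cd74 (21.7 to 26.4), 9.60% for H2-Ab1 (7.37 to 12.2), 3.30% for H2-Eb1 (0.685 to 9.33) and 2.28% for H2-Aa (1.05 to 4.28). Cd74 thus lay above the other tags of lung too, and H2-Aa lay below them. Cd74 was also higher in liver, with 46.3% of 54 tags (32.6 to 60.4) against 9.67%, but not in kidney, with 2% of 50 tags against 2.28%. B2m, the light chain of MHC class I, showed the same contrast between spleen and lung, with 73 of 224 tags in spleen (32.6%, interval 26.5 to 39.2) and 13 of 1438 in lung (0.904%, 0.482 to 1.54). The part of this property of the library in the levels of the 4 genes was not tested.

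**Figure D5:**
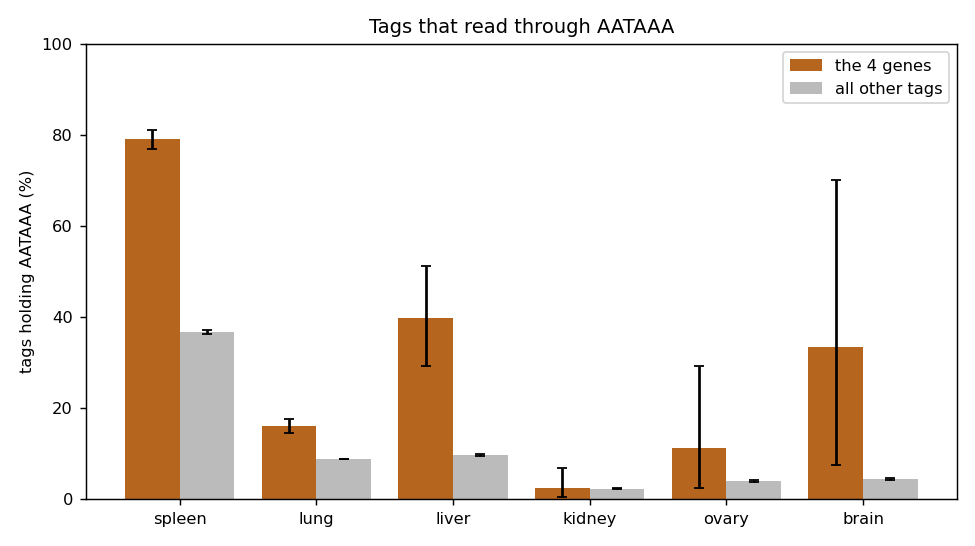
Share of tags (%) that hold AATAAA whole, for the 4 genes together and for all other unique tags, in each library; bars carry exact 95% intervals. Spleen is highest in both sets (79.1% and 36.6%), and kidney is lowest (2.38% and 2.28%).

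Outside the last stretch the tags came mainly from lung and kidney, which are also the deepest libraries. Unique tags in all numbered 493121 in lung and 162270 in kidney, against 42939 in spleen. Overlapping tags joined into runs of at least 40 nt, 9 in Cd74, 5 in H2-Aa, 6 in H2-Ab1 and 2 in H2-Eb1, and in each gene the last run held the hexamer. In H2-Ab1 the run from 34404284 to 34404554 (271 nt) held 75 lung, 16 kidney, 1 liver and 1 brain tags and no spleen tag. The next, from 34404872 to 34404982, held 21 lung tags and 1 spleen tag. Of the 604 lung tags of H2-Ab1, 133 lay more than 1000 nt upstream of the hexamer, as did 20 of its 44 kidney tags and 1 of its 97 spleen tags. Distances here are along the genome and may include introns.

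In Cd74, 45 of the 1315 lung tags lay more than 1000 nt upstream and none of the 1168 spleen tags did. The run nearest the start, 60963556 to 60963640, held 8 lung tags and 1 liver tag. In H2-Eb1 the run nearest the start, 34442889 to 34442930, held 3 kidney tags and 1 ovary tag, and none of lung or spleen. Lung had 1 tag shortly past this run, 10185 nt upstream of the hexamer. A total of 6 of the 10 kidney tags of H2-Eb1 lay more than 1000 nt upstream, against 12 of 91 in lung.

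Some ends away from the hexamer were strong in some libraries and weak or absent in others, among which depth differs widely. In H2-Ab1 the end with most tags over all libraries was position 34406149, 185 nt upstream of the hexamer. It held 57 lung tags (9.44% of the gene's lung tags, 116 CPM), 2 kidney tags, 1 liver tag and no spleen tag, which allows up to 69.9 CPM in spleen. In Cd74, positions 60972242 and 60972226, 43 and 59 nt upstream, held 81 and 71 of the 1315 lung tags (6.16% and 5.40%). In spleen they held 0 and 4 of the 1168 tags, and in kidney 3 and 4 of the 50 (6% and 8%). Position 60972226 also held 3 of the 54 liver tags (5.56%). In liver, positions 60972050 and 60972049, 235 and 236 nt upstream, held 7 and 4 of the 54 Cd74 tags, against 5 and 7 of the 1315 lung tags and none in spleen. Kidney had 2 and 1 of its 50 tags at these positions, and brain had 1 of its 7 at the latter. The end of H2-Aa with most tags over all libraries, position 34419758, had 21 of its 535 tags and was higher in spleen, with 6 tags (140 CPM, 5.88% of the gene's spleen tags) against 14 in lung (28.4 CPM, 3.54%).

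Exact ends were partly shared. Of the 49 Cd74 ends seen in spleen, 48 were also seen in lung (98.0% of the spleen ends and 20.5% of the 234 lung ends), and they carried 99.9% of the spleen tags. Shared ends numbered 38 in H2-Aa (77.6% of spleen ends, 25.2% of lung ends), 27 in H2-Ab1 (77.1% and 10.7%) and 9 in H2-Eb1 (56.3% and 13.2%). With at least 2 tags required in each library, H2-Eb1 kept 1 shared end of 10 in spleen and 17 in lung. The single most widespread ends were in Cd74, where 1 end was seen in 5 libraries and 9 in 4. Most ends were seen in 1 library only, 168 of 244 in Cd74, 124 of 174 in H2-Aa, 229 of 282 in H2-Ab1 and 71 of 86 in H2-Eb1. Such counts depend on depth, which ran from 29213 unique tags in ovary and 42939 in spleen to 493121 in lung. The same shares over all ends of the libraries are not given here, so these counts are not read as a trait of the 4 genes.

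The liver and lung levels are set here beside the markers of other tissues described above. In liver the 4 genes stood at 25.6% of the lung CPM for Cd74 (interval 19.2 to 33.7), 11.1% for H2-Aa (4.42 to 23.0), 17.6% for H2-Ab1 (10.2 to 28.4) and 34.3% for H2-Eb1 (10.9 to 83.1), next to 3.63% and 5.88% for the lung genes Sftpa1 and Ager. In lung the 4 genes exceeded their kidney level between 2.99-fold (H2-Eb1) and 8.65-fold (Cd74), while the kidney genes stood at 7.13% to 15.0% of it. Of 10 chosen markers of macrophages and dendritic cells, only Lyz2 was placed. It had 296 CPM in lung from 146 tags and 1 tag in spleen, the reverse of the order of the 4 genes. Of 7 T cell markers, Cd3d and Cd3g were placed. They had 3 spleen tags each, with ratios of spleen over lung of 2.15 (0.402 to 7.52) and 2.87 (0.520 to 10.6). The part of other tissues or of these cells in the levels was not tested.

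Of 22 other genes of class II presentation, only Rfxank, a subunit of the RFX factor that binds class II promoters, could be placed. It had 12 lung tags among 20 (24.3 CPM) and none in spleen. A spleen count of 0 allows up to 69.9 CPM, so the order of these libraries is not known for Rfxank. Of 10 genes of class I presentation, B2m, Tapbp and Psmb9 were placed. B2m reached 5217 CPM in spleen, against 2916 CPM in lung, 1.79 times as much by library totals (1.55 to 2.06). The B2m ratio is not given under TMM, which turned the similar ratio of H2-Ab1 from 1.84 to 0.881, so its direction depends on the scaling chosen. Tapbp, which loads peptides onto class I molecules, had 93.2 CPM in spleen and 99.4 in lung from 4 and 49 tags. Psmb9, a subunit of the immunoproteasome, had 12 tags in all, 10 of them in lung (20.3 CPM). It had none in spleen, where the same limit holds.

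Levels of class II genes are controlled together through their promoters, where RFX binds the X box and NF-Y binds the Y box, an inverted CCAAT sequence. The 250 bases before the RefSeq start (GRCm38.p6, from the C57BL/6J strain) are shown for H2-Aa and H2-Eb1, which share letters at these places. Cd74 and H2-Ab1 were not searched here. Capitals mark CTNGCAAC and CTGATTGG, motifs chosen after these 2 sequences had been read.
H2-Aa, chr17:34287824-34288073, minus strand: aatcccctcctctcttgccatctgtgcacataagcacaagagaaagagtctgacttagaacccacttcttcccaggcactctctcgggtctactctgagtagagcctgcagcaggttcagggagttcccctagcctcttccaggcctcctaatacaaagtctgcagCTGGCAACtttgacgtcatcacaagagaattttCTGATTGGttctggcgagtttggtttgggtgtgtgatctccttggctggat
H2-Eb1, chr17:34305617-34305866, plus strand: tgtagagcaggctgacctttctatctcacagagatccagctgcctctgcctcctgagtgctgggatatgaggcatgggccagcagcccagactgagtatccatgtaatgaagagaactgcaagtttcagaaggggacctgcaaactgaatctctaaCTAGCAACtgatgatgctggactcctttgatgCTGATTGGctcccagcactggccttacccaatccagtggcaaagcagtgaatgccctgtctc

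Each promoter held each motif once, on the sense strand, and the motifs do not overlap. CTGATTGG began 51 nt before the start in H2-Aa and 62 nt before it in H2-Eb1, and the gap between the motifs was 25 nt in H2-Aa and 24 nt in H2-Eb1. Searched on both strands, CTNGCAAC occurred in 2.84% and CTGATTGG in 3.83% of 32851 promoter sequences of the same length, and both occurred in 51 of them (0.155%). The 51 included H2-Eb2, a further class II beta gene, the class I genes H2-D1 and H2-M10.5, and many genes outside the MHC classes, such as Fth1, Cdkn2d, Ddc and Lamp2. A match is a description of these letters and not of a bound factor.

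Outside the 4 genes, the windows of 2 kb whose split over the 6 libraries was most like theirs were named by a measure that runs from 0 to 1, over 2029 windows with at least 60 tags (median 0.268). The closest were chr12:114656001-114658000 on the minus strand (0.970), with 2538 CPM in spleen and 349 in lung, and chr7:110960001-110962000 on the minus strand (0.964), with 5124 CPM in spleen and 925 in lung, where the haemoglobin gene Hbb-bt was placed. The next were chr12:114496001-114498000 on the minus strand (0.948), chr9:32564001-32566000 on the plus strand (0.947) and chr6:136872001-136874000 on the minus strand (0.944). On the same measure Cd74 scored 0.947 against the 4 genes together, H2-Eb1 0.928, H2-Aa 0.818 and H2-Ab1 0.714. Some windows outside the set were thus as close to its summed pattern as its members. The comparison is not like with like, because each member is part of that sum. Cd74 gave 78.1% of its spleen tags and 54.7% of its lung tags.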

How the data were processed

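Libraries were made, per the labels' protocols, by joining an adaptor to oligo(dT)-selected RNA, copying it to DNA, cutting short tags with MmeI, adding a barcode per tissue and sequencing on an Illumina GA. Tags were aligned to mm9, and Bowtie is named, per the submitters' processing notes; no version or settings are named there. The deposited tables list each tag sequence with its location and number of reads; the deposited score is a display density and was not used. Minus-strand sequences were reverse complemented, the 5′ end was taken per strand, and sequences listed at 2 locations (8.62% to 17.2% of tags) were left out, 5 of them in the 4 genes.

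The members, gene lists and tests were chosen with earlier results of these data known. Counts of tags per gene, as the authors deposited them per sequence, were scaled to CPM. Intervals are exact (Poisson, Clopper-Pearson, conditional binomial; scipy 1.17.1); factors of the trimmed mean of M values (TMM) were computed on 2 kb windows by the published formula. The ratio and its interval were tested on simulated data. AATAAA was read from the consensus of overlapping tags. At most 0.127% of read bases differed from it. mm9 is a C57BL/6J genome, and whether BALB-c alleles of class II genes cost tags was not tested. List genes were to be found by protein; since no protein table was used here, 942 of 27025 genes were placed by tags that match the RefSeq promoter table exactly, and tags were counted from that start over the RefSeq gene length. Named were all 4 genes, ends with at least 10% of a gene's tags or else the strongest, placed list genes, chiefly those with at least 20 tags, and the 5 most alike windows; other ends and list genes named were chosen after their values were seen.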

Additional observations from a re-analysis of the deposited data

How the results depend on the processing

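Each tissue has 1 library, so no replicate could be left out. No paired analysis was done, since the shared replicate number does not tell whether the tissues came from the same animals. The match to proteins and its alternative were not run. Of the 24 levels, 20 stayed within their intervals with all deposited lines, 18 with TMM, 16 by distinct ends and 22 without the 10 strongest ends of each library. By distinct ends, the levels that left their intervals were those of all 4 genes in spleen and in lung. Under TMM they were the lung levels of all 4 genes and the Cd74 levels in spleen and liver. Levels that stayed were mostly from few tags with wide intervals, and brain levels of 0 cannot move.

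For the ratio of spleen over lung, Cd74 gave 9.37 with all lines, 4.87 with TMM, 2.22 by distinct ends, 5.86 without its strongest end and 2.90 without the 10 strongest ends of each library. TMM gave 1.42 for H2-Aa, 0.881 for H2-Ab1 (direction turned) and 7.71 for H2-Eb1, and distinct ends gave 2.50 for H2-Eb1. Restricting tags to more than 50 nt upstream of AATAAA, chosen after seeing the data, turned all 4, to 0.336 for Cd74, 0.591 for H2-Aa, 0.294 for H2-Ab1 and 0.656 for H2-Eb1. These upstream ratios became 0.161, 0.282 and 0.141 with TMM for Cd74, H2-Aa and H2-Ab1, and 0.543 by distinct ends for H2-Ab1. Where TMM moved a ratio, the cause was not tested.

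The share of Cd74 among the 4 genes, by distinct ends, was 32.9% in spleen, 33.2% in lung and 50% in liver, and 68.5% in spleen without each gene's strongest end. Counting within 1 nt, the strongest end over all libraries held 63.3% of spleen and 8.52% of lung tags for Cd74, 7.85% of lung tags for H2-Aa and 51.6% of spleen tags for H2-Eb1. Of spleen ends with at least 2 tags, 100% (Cd74), 91.7% (H2-Ab1) and 10% (H2-Eb1) had at least 2 tags in lung as well.

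The stretch before AATAAA set at 25 nt, 100 nt or counted by distinct ends held, for Cd74, 95.2%, 99.9% and 83.7% in spleen against 33.2%, 83.0% and 22.6% in lung. For H2-Aa it held 55.9%, 99.0% and 79.6% in spleen against 8.10%, 75.2% and 27.2% in lung, and for H2-Ab1 76.3%, 97.9% and 68.6% in spleen against 13.2%, 45.9% and 14.7% in lung. For H2-Eb1 100 nt gave 100% and distinct ends 81.2% in spleen, and 25 nt and 100 nt gave 8.79% and 57.1% in lung. In each gene and setting listed for both libraries, spleen stayed above lung. Depth limits ovary and brain, with 27 and 9 tags of the 4 genes.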
